A study of Chlorocebus aethiops with 3 samples.

Results

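The genes described here are those of the endoplasmic reticulum (ER) stress and ATF4 response: ER chaperones, protein disulphide isomerases, factors of ER-associated degradation, the sensors and transcription factors of the unfolded protein response, and targets of ATF4. They were taken as 36 RefSeq accessions of 34 genes, picked by name and function, with earlier results of these data known. Of these accessions, 32 had at least 1 probe among the 41000 probes of the array. The accessions NM_182810 (ATF4), NM_133436 (ASNS), NM_032431 (SYVN1) and NM_021154 (PSAT1) carried none; ATF4 and ASNS were measured through NM_001675 and NM_001673, and SYVN1 and PSAT1 were not measured. Each accession was represented by its probe with the highest mean log2 signal. For 28 of the 32, 1 or both channels of that probe stood well above background on each of the 3 arrays, and these were tested. The array files give accessions and not symbols, so the gene names used here are those to which the RefSeq accessions belong, given as background knowledge and not checked against an annotation table.

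The RNA came from heavy polysomes, the sucrose gradient fractions of mRNAs that carry many ribosomes, of COS-7 cells, an SV40-transformed kidney line of the African green monkey with a fibroblast-like shape. Control cells received scrambled siRNA and knockdown cells received siRNAs against the coding region of human RHA (RNA helicase A, gene DHX9). The siRNA was given at 0.5 nM in a first transfection and a repeat, and the second was followed by 24 hours of culture in serum. The protocol also gives 4 hours without serum. Each of 3 Agilent 2-colour arrays, the biological replicates 1 to 3, held control RNA in Cy3 and knockdown RNA in Cy5, with 0 arrays of swapped dye, so an effect of the dye and of the knockdown cannot be told apart. Probes were designed on human sequence and the RNA and cells were from a monkey; the siRNAs too were targeted to the human sequence. Values are log2 ratios of knockdown over control after background correction and loess normalization within each array, so 0 means the typical ratio of probes of the same brightness on that array.

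The share of probes well above background ran from 37.5% to 50.7% for the control and from 45.5% to 53.1% for the knockdown, with the highest share of both on replicate 3. The RHA message (NM_001357), by its brightest probe, read -0.041, -0.20 and -0.60 as log2 ratio on replicates 1, 2 and 3, below 0 on each, and did not pass the test (mean -0.28 ± 0.29, SD, n = 3; limma adjusted p = 0.217). Its other tested probe read -0.12, -0.12 and -0.76 and did not pass either (limma adjusted p = 0.210). With arrays centred on the median of all probes in place of loess, the means of these probes turned to 0.26 and 0.068. With the tested probes' median as the centre they were -0.055 and -0.25. The arrays are therefore named after their labels. A ratio here moves with the amount of an mRNA in the cell as well as with its share in heavy polysomes, and in bulk RNA fewer cells with a transcript and less of it per cell cannot be told apart. Total RNA was not analysed here. Lists of other pathway genes and of cell type markers could not be matched to accessions, so the fibroblast-like identity of the cells was not checked.

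As background, misfolded protein in the ER lumen draws the chaperone BiP (HSPA5) away from the sensors IRE1 (ERN1), PERK (EIF2AK3) and ATF6. IRE1 splices the XBP1 mRNA, ATF6 is cut to release a transcription factor, and PERK phosphorylates the initiation factor eIF2 alpha, which lowers general translation while the ATF4 mRNA, with upstream open reading frames, is translated more. ATF4 also answers amino acid shortage, and its targets include CHOP (DDIT3), TRIB3, CHAC1 and asparagine synthetase.

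Among the 28 tested genes, 4 rose in heavy polysomes of knockdown cells, namely XBP1, DDIT3, ATF6 and DNAJB9, and 3 fell, namely CEBPB, TRIB3 and CHAC1. The remaining 21 did not pass the test (limma, 2-sided, adjusted over all 18143 tested probes, threshold 0.05). DNAJB9 entered the test only through the knockdown channel, where it is high. With both channels required to be well above background, 3 of 26 tested genes rose and 3 fell, and 1659 and 1647 of 13939 probes. Of the 28 genes, 14.3% rose, against 9.72% of all 18143 tested probes, and 10.7% fell, against 8.65%. The counts are thus close to those of the array as a whole, and the list did not move in 1 direction: its median log2 ratio was -0.0082, against 0.018 for all tested probes. The ratios had 1 sign on all 3 arrays for 16 of the 28 genes, or 57.1%, against 58.4% of the tested probes with a value on every array. Leaving out replicate 2 removed every call, with 0 of the 28 genes and 0 of all probes past the threshold in limma, while 12 of the 28 genes and 4238 probes had an unadjusted p under 0.05.

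**Figure D1:**
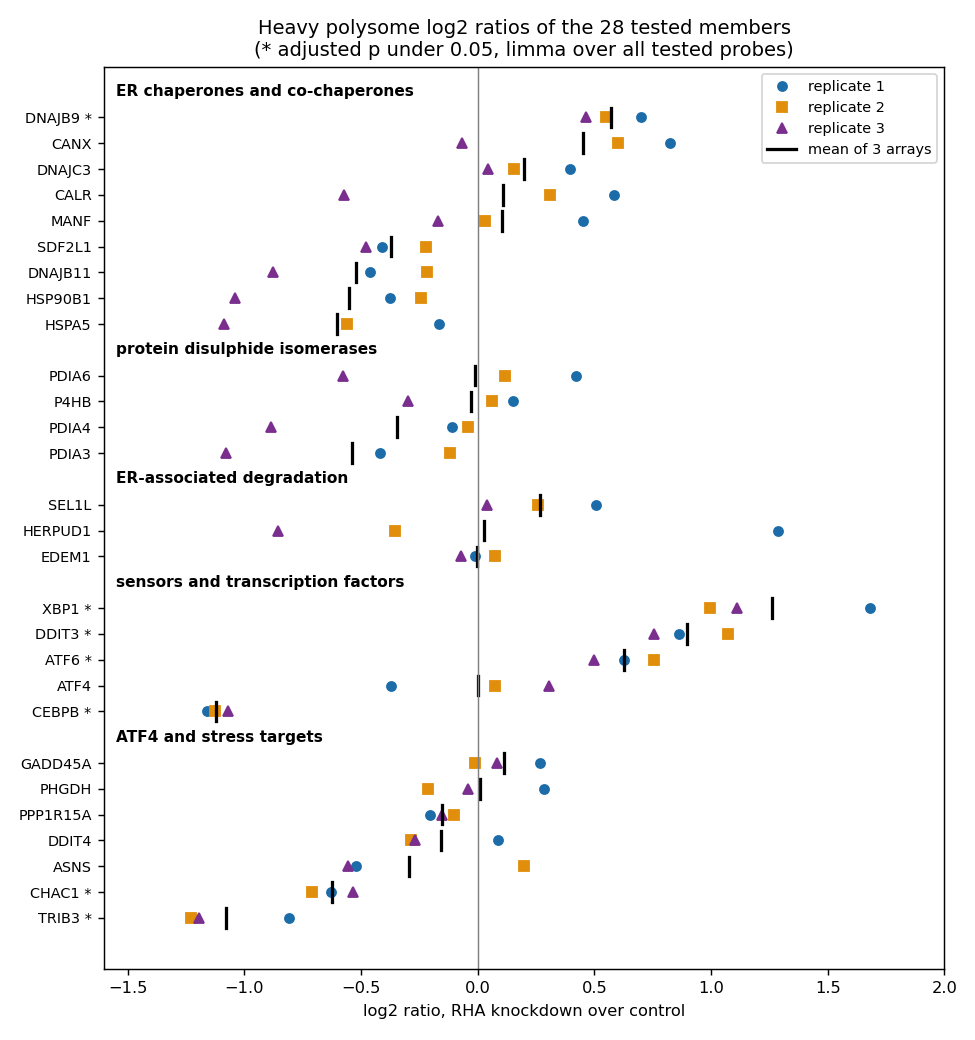
Log2 ratio of RHA knockdown over control in heavy polysomes (horizontal axis) for each of the 28 tested genes (rows, grouped by role), with 1 symbol per array and a bar at the mean of the 3 arrays. XBP1, DDIT3, ATF6 and DNAJB9 lie above 0 on every array and CEBPB, TRIB3 and CHAC1 below 0 on every array, while the triangles of replicate 3 are leftmost for every chaperone and disulphide isomerase.

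The zero of these ratios is set by the normalization. Centring each array on the median of all probes in place of loess moved the median of the tested probes from 0.018 to 0.30, and then 19.6% of tested probes rose and 0.325% fell. In that setting XBP1, DDIT3, ATF6, DNAJB9 and GADD45A rose and 0 of the 28 genes fell. CEBPB, TRIB3 and CHAC1 still lay below 0 there by their means, with log2 ratios of -0.44, -0.29 and -0.12 and limma adjusted p of 0.144, 0.290 and 0.614. On replicate 2 they read -0.038, -0.0045 and 0.12 in that setting, and on replicates 1 and 3 each lay below 0. Taking the tested probes' median as the centre kept these 3 genes past the threshold, at -0.76, -0.61 and -0.43. Of the 15 genes with a mean below 0, 4 stayed below it with centring on all probes, namely these 3 and HSPA5, and 11 turned above it. With centring on the tested probes, 4 of the 15 turned, namely PDIA6, DDIT4, ASNS and SDF2L1. A fall reported here is therefore a fall relative to probes of like brightness.

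The sensors of the response were mostly too dim to be read. ERN1 (NM_001433), which encodes the kinase and endonuclease IRE1, was well above background in 0 of 3 control and 0 of 3 knockdown channels. EIF2AK3 (NM_004836), the PERK kinase, was so in 1 of 3 control channels and in 0 of 3 knockdown channels. Neither was tested, and no ratio is drawn from these signals.

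ATF6 (NM_007348), the membrane-bound sensor that is cut to yield a transcription factor, was measured in both channels of every array. It read 0.63, 0.76 and 0.50 as log2 ratio on replicates 1, 2 and 3. The 3 values lie close together and all above 0. ATF6 rose by a mean log2 ratio of 0.63 ± 0.13 (SD, n = 3), or 1.55-fold. Its 95% interval was 0.37 to 0.89 on the log2 scale, with a limma adjusted p of 0.0235. Of the 18143 tested probes, 1417 had a higher ratio.

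XBP1 (NM_005080), whose mRNA is spliced by IRE1 to encode an activator of chaperone and degradation genes, had the highest mean ratio of the 28 genes by their brightest probes. Its log2 ratios were 1.68, 0.99 and 1.11. Replicate 1 was the highest, and the lowest of the arrays still showed nearly a doubling of the ratio. The uncorrected spot intensity was 72, 110.5 and 313 in the control channel and 584, 733 and 1873 in the knockdown channel of replicates 1, 2 and 3, with local backgrounds of 24 to 27 and 60 to 64. XBP1 rose by 1.26 ± 0.37 (SD, n = 3) on the log2 scale, or 2.40-fold, and 243 tested probes had a higher ratio. Its 95% interval was 0.86 to 1.67 on the log2 scale, with a limma adjusted p of 0.0167. The probe was not placed relative to the spliced segment, so spliced and unspliced XBP1 were not told apart.

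DDIT3 (NM_004083) encodes CHOP, a transcription factor induced by ATF4 and linked to cell death under lasting ER stress. Its log2 ratios were 0.86, 1.07 and 0.75. All 3 arrays agreed in direction within a narrow range. DDIT3 rose by 0.90 ± 0.16 (SD, n = 3) on the log2 scale, or 1.86-fold. Its 95% interval was 0.62 to 1.17 on the log2 scale, with a limma adjusted p of 0.0162. Its control intensities were 128.5, 90 and 286.5 and its knockdown intensities 520.5, 610 and 1288.5, all well above background.

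CEBPB (NM_005194), a bZIP transcription factor that pairs with CHOP and ATF4, moved the other way. Its log2 ratios were -1.16, -1.12 and -1.07, the tightest set among the 7 genes that passed the test. The probe is printed as several spots on the array, which were averaged, and spots flagged as outliers were left out. CEBPB fell by a mean of 1.12 on the log2 scale, with an SD of 0.046 (n = 3), to 0.460 times the control (95% interval -1.36 to -0.88; limma adjusted p = 0.0141). Only 209 of the tested probes had a lower ratio. A second CEBPB probe was well above background in 2 of 3 arrays in each channel and was not tested.

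The readings for ATF4 (NM_001675), the transcription factor at the centre of the response, depended on the probe. The brightest probe, A_23_P120933, had log2 ratios of -0.37, 0.075 and 0.31, so the arrays fell on both sides of 0. Its mean was 0.0026 ± 0.35 (SD, n = 3), with a 95% interval of -0.39 to 0.39 and a limma adjusted p of 0.993. The second probe, A_23_P120941, had log2 ratios of 2.19, 1.10 and 1.08, all above 0. It rose by 1.46 ± 0.64 (SD, n = 3) on the log2 scale, or 2.74-fold. Its 95% interval was 0.83 to 2.08 on the log2 scale, with a limma adjusted p of 0.0242. The second probe would have been called risen had it stood for the gene.

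The difference between the ATF4 probes, second minus brightest, was 2.56, 1.02 and 0.77 in the order of the replicates, which averages 1.45 ± 0.97 (SD, n = 3). The second probe was higher on every array. In uncorrected intensity, the brightest probe gave 16815.5, 7140.5 and 14908 in the control channel and 24062, 27406 and 68031 in the knockdown channel, below saturation on every array. The second probe gave 205, 326 and 799 in the control and 1953, 2195 and 4840 in the knockdown channel. Only 132 tested probes were brighter than A_23_P120933. Its mean log2 ratio was 0.95 with centring on the median of all probes and 0.64 with centring on the tested probes, at limma adjusted p of 0.0673 and 0.0755. The second probe stayed past the threshold in those settings, at 2.16 and 1.85, and without replicate 2, where no probe was called, its limma adjusted p was 0.121. Probe sequences were not used here, so which part of the transcript each probe reads, and whether either also binds a related sequence, was not tested.

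**Figure D2:**
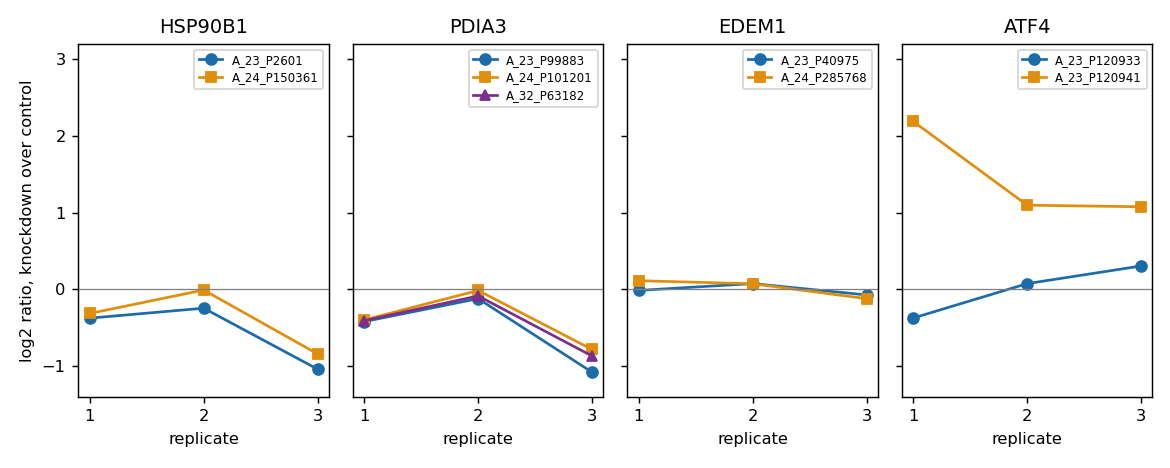
Log2 ratio of knockdown over control (vertical axis) on replicates 1 to 3 (horizontal axis; the replicates have no order, and a line only joins the values of 1 probe) for every gene with more than 1 tested probe. The probes of HSP90B1, PDIA3 and EDEM1 lie close together, whereas the ATF4 probes differ by 2.56, 1.02 and 0.77.

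For the other genes with more than 1 tested probe, the probes gave like ratios. The means spanned 0.17 for the pair of HSP90B1 probes, 0.14 for the 3 PDIA3 probes and 0.025 for the pair of EDEM1 probes on the log2 scale. None of those 7 probes passed the test.

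Of the 10 accessions grouped here as ATF4 and stress targets, 7 were tested, of which 0 rose and TRIB3 and CHAC1 fell. The other 5 did not pass the test. Of all tested probes, 9.72% rose and 8.65% fell, and 7 genes are too few to set against those shares. DDIT3, a target of ATF4 as well, was grouped with the transcription factors and rose. With centring on the median of all probes DDIT3 stayed past the threshold, at 1.47, and TRIB3 and CHAC1 did not. TRIB3 (NM_021158), a pseudokinase induced by ATF4 and CHOP that holds back ATF4 activity, had log2 ratios of -0.81, -1.23 and -1.19. The ratio lay well below 0 on each array, with replicate 1 the nearest to it. TRIB3 fell by a mean of 1.08 on the log2 scale, with an SD of 0.23 (n = 3), to 0.474 times the control (95% interval -1.39 to -0.76; limma adjusted p = 0.0157). Its uncorrected intensities were 1244, 1251 and 5255 in the control and 1352, 1636 and 7140 in the knockdown channel, all well above background. A second TRIB3 probe was so on 1 of 3 arrays in each channel and was not tested.

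CHAC1 (NM_024111), which degrades glutathione and is a target of ATF4, had log2 ratios of -0.63, -0.71 and -0.54. The 3 arrays lay within a narrow range below 0. CHAC1 fell by a mean of 0.62 on the log2 scale, with an SD of 0.087 (n = 3), to 0.649 times the control (95% interval -0.87 to -0.38; limma adjusted p = 0.0217).

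ASNS (NM_001673), the asparagine synthetase that is a standard reporter of the amino acid arm, had log2 ratios of -0.52, 0.20 and -0.55. Replicate 2 lay on the other side of 0 from the other arrays, and the mean of -0.29 ± 0.42 (SD, n = 3) did not pass the test (limma adjusted p = 0.300). Its sign turned to 0.33 with centring on the median of all probes and to 0.017 with centring on the tested probes.

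The other tested targets lay near 0. PPP1R15A (NM_014330), the GADD34 subunit that restores translation by directing a phosphatase to eIF2 alpha, had a mean of -0.15 ± 0.051 (SD, n = 3), below 0 on all 3 arrays, at a limma adjusted p of 0.311. DDIT4 (NM_019058), an inhibitor of mTORC1, had -0.16 ± 0.21, and GADD45A (NM_001924), a stress and cell cycle arrest protein, had 0.11 ± 0.14 (SD, n = 3). PHGDH (NM_006623), the first enzyme of serine synthesis, had 0.010 ± 0.25 (SD, n = 3). The limma adjusted p of these 3 genes lay between 0.399 and 0.964. GADD45A was past the threshold with either median centring, at 0.79 and 0.48 and a limma adjusted p of 0.0398 and 0.0395. SESN2 (NM_031459), a sestrin induced by ATF4, was well above background in 1 of 3 arrays in each channel and was not tested.

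Of the 10 ER chaperones and co-chaperones, 9 were tested, of which DNAJB9 alone rose and 0 fell. Among all tested probes 9.72% rose and 8.65% fell, and 9 genes are too few to set against those shares. DNAJB9 (NM_012328), the co-chaperone ERdj4 that holds IRE1 in check and is a target of spliced XBP1, had log2 ratios of 0.70, 0.55 and 0.46. All arrays lay above 0 and close together. It passed the test with a mean of 0.57 ± 0.12 (SD, n = 3; limma adjusted p = 0.0267), a value whose size is set by the treatment of background.

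The control signal of DNAJB9 was close to background, and the gene entered the test through its knockdown channel. It read 26, 29 and 41 against local backgrounds of 27, 30 and 29, and was well above background on 1 of 3 arrays, while the knockdown channel was so on all 3. The mean differed with the background correction, with a log2 ratio of 1.96 at a normexp offset of 0 and 3.06 in Agilent's processed ratios. The call was lost with centring on the tested probes (0.44, limma adjusted p = 0.0513) and without replicate 1 (0.51, limma adjusted p = 0.0551).

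HSPA5 (NM_005347), which encodes BiP, the main ER chaperone of the Hsp70 family and the usual reporter of ER stress, had log2 ratios of -0.16, -0.56 and -1.09. All 3 arrays were below 0, spread over nearly a whole log2 unit, and replicate 3 was the lowest. The mean of -0.60 ± 0.46 (SD, n = 3; 95% interval -1.08 to -0.12) did not pass the test (limma adjusted p = 0.0860). HSPA5 was past the threshold in 6 of the 16 alternatives, all on the side below 0, among them Agilent's processed ratios (-0.91, limma adjusted p = 0.0499), the authors' series values (-0.72, limma adjusted p = 0.0495) and the fit without replicate 1 (-0.82, limma adjusted p = 0.0331). Its second probe was well above background on 0 of 3 arrays in both channels.

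HSP90B1 (NM_003299), the ER member of the Hsp90 family, known as GRP94, had log2 ratios of -0.37, -0.24 and -1.04. Again replicate 3 stood below the other arrays. The mean was -0.55 ± 0.43 (SD, n = 3; limma adjusted p = 0.0917), and centring on the median of all probes turned it to 0.20. DNAJB11 (NM_016306), a co-chaperone of BiP, had -0.46, -0.22 and -0.88 and a mean of -0.52 ± 0.33 (SD, n = 3; limma adjusted p = 0.0717). SDF2L1 (NM_022044), a partner of that co-chaperone, had -0.41, -0.22 and -0.48 and a mean of -0.37 ± 0.13 (SD, n = 3; limma adjusted p = 0.0673). DNAJB11 passed only without background correction (-0.56, limma adjusted p = 0.0440). With centring on the median of all probes DNAJB11 turned to 0.14 and SDF2L1 to 0.50, and SDF2L1 lay at 0.19 with centring on the tested probes. HSPA5 kept its sign there at -0.12, with 0.33 and 0.28 on replicates 1 and 2 and -0.97 on replicate 3.

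The lectin chaperones of glycoproteins lay higher. CANX (NM_001746), calnexin, had log2 ratios of 0.82, 0.60 and -0.069 and a mean of 0.45 ± 0.46 (SD, n = 3; limma adjusted p = 0.161). It passed the test at 0.71 without replicate 3 (limma adjusted p = 0.0295), at 0.74 with a normexp offset of 0 (limma adjusted p = 0.0378) and when the variance was let to follow signal strength (limma adjusted p = 0.0443). CALR (NM_004343), calreticulin, had 0.58, 0.31 and -0.57, with a mean of 0.11 ± 0.60 (SD, n = 3; limma adjusted p = 0.777). In both, replicate 3 lay below 0 and the other arrays above it.

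DNAJC3 (NM_006260), the p58IPK inhibitor of PERK, had a mean of 0.20 ± 0.18 and MANF (NM_006010), a secreted factor of the ER, a mean of 0.10 ± 0.31 (SD, n = 3), with limma adjusted p of 0.274 and 0.651. MANF passed the test with centring on the tested probes, at 0.54 (limma adjusted p = 0.0472), and lay at 0.86 with centring on all probes (limma adjusted p = 0.0561). HYOU1 (NM_006389), the large Hsp70-like chaperone of the ER, was well above background in 1 of 3 control and 0 of 3 knockdown channels and was not tested.

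All 4 protein disulphide isomerases were tested, of which 0 passed. Of all tested probes 18.4% passed, and 4 genes are too few to set against that share. PDIA3 (NM_005313), the isomerase ERp57 that works with calnexin and calreticulin, had log2 ratios of -0.42, -0.12 and -1.08, with a mean of -0.54 ± 0.49 (SD, n = 3; limma adjusted p = 0.123). Its other probes gave -0.40 ± 0.38 and -0.45 ± 0.39 (SD, n = 3), again with the lowest value on replicate 3. PDIA4 (NM_004911) had -0.11, -0.042 and -0.88, and PDIA6 (NM_005742) had 0.42, 0.12 and -0.58. P4HB (NM_000918), the founding isomerase PDI, had 0.15, 0.063 and -0.30 and was well above background in the control channel on 1 of 3 arrays. The means of these last 3 genes ran from -0.35 to -0.013, with limma adjusted p from 0.261 to 0.971.

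Replicate 3 gave the lowest log2 ratio for each of the 13 tested chaperones and disulphide isomerases. Among the 15 other tested genes it was the lowest for 6, among them the 3 tested genes of ER-associated degradation, and among all tested probes for 34.1%. The difference between replicate 3 and the mean of replicates 1 and 2 ran from -1.02 to -0.16 over the 13 genes, with a median of -0.73. The median of that difference was -0.17 over the 15 other genes and -0.0017 over all tested probes. The median log2 ratio of the 13 genes was 0.15, 0.033 and -0.57 on replicates 1, 2 and 3. On replicate 3, 11 of the 13 had a negative ratio. The median of the mean of replicates 1 and 2 was 0.11, against 0.67 with centring on all probes and 0.26 with centring on the tested probes.

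**Figure D3:**
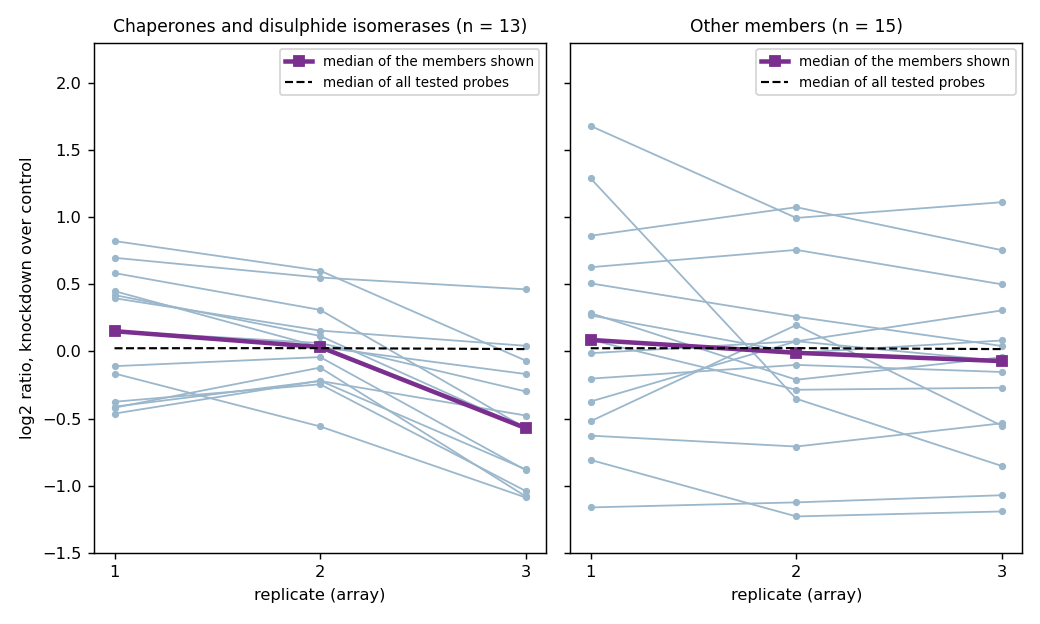
Log2 ratio of knockdown over control (vertical axis) on replicates 1 to 3 (horizontal axis; the replicates have no order, and a thin line joins the values of 1 gene), for 13 chaperones and disulphide isomerases and for 15 other genes. The thick line is the median of the genes shown, at 0.15, 0.033 and -0.57 in the left panel, and the dashed line is the median of all tested probes, which stays near 0.

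This pattern was noticed after the values were seen and has no test. It held for 13 of 13 genes with a normexp offset of 0, with Agilent's processed ratios and with centring on all probes, where replicate 3 was also the lowest for 14 of the 15 other genes and 69.4% of all tested probes. It held for 12 of 13 without background correction and in the series values, and for 10 of 13 with centring on the tested probes, where the 15 other genes were lowest on replicate 3 in 12 cases. Replicate 3 was also the brightest array, with a median control signal of 38 against 31 and 30, and the array with the lowest RHA ratio. The part of either in the pattern was not tested.

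The spread between arrays was wide for the chaperones and isomerases. The median SD of the log2 ratio over the 3 arrays was 0.33 for the 9 tested chaperones and 0.48 for the 4 isomerases, against 0.19 for all tested probes. It was 0.23 for the 3 tested genes of ER-associated degradation, 0.21 for the 7 tested ATF4 and stress targets and 0.16 for the 5 tested sensors and transcription factors. These groups were not matched for brightness, and the normexp offset pulls dim ratios toward 0. The part of brightness in the difference of spread was not tested. Over the 28 genes, Pearson's r between arrays was 0.75 for replicates 1 and 2, 0.66 for 1 and 3 and 0.80 for 2 and 3, against 0.74, 0.64 and 0.70 over all tested probes, with all arrays of 1 dye orientation.

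Genes of ER-associated degradation, which returns misfolded proteins to the cytosol for the proteasome, gave 0 calls among 3 tested. With 18.4% of all tested probes called, 3 genes are too few to set against that share. HERPUD1 (NM_014685), a membrane scaffold of the degradation complex and a strongly induced ER stress gene, had log2 ratios of 1.29, -0.35 and -0.85. Replicate 1 stood far above the other arrays, and the SD of 1.12 was the widest of the 28 genes. Its mean of 0.028 therefore says little, with a 95% interval from -1.01 to 1.07. SEL1L (NM_005065), the adaptor of the degradation ligase, had 0.51, 0.26 and 0.040, a mean of 0.27 ± 0.23 (SD, n = 3; limma adjusted p = 0.193). It passed the test at 0.72 with a normexp offset of 0 (limma adjusted p = 0.0402) and when the variance was let to follow signal strength (limma adjusted p = 0.0492). EDEM1 (NM_014674), a mannosidase-like factor that passes glycoproteins to degradation, lay at -0.0031 ± 0.074 (SD, n = 3), with a 95% interval from -0.25 to 0.24.

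**Figure D4:**
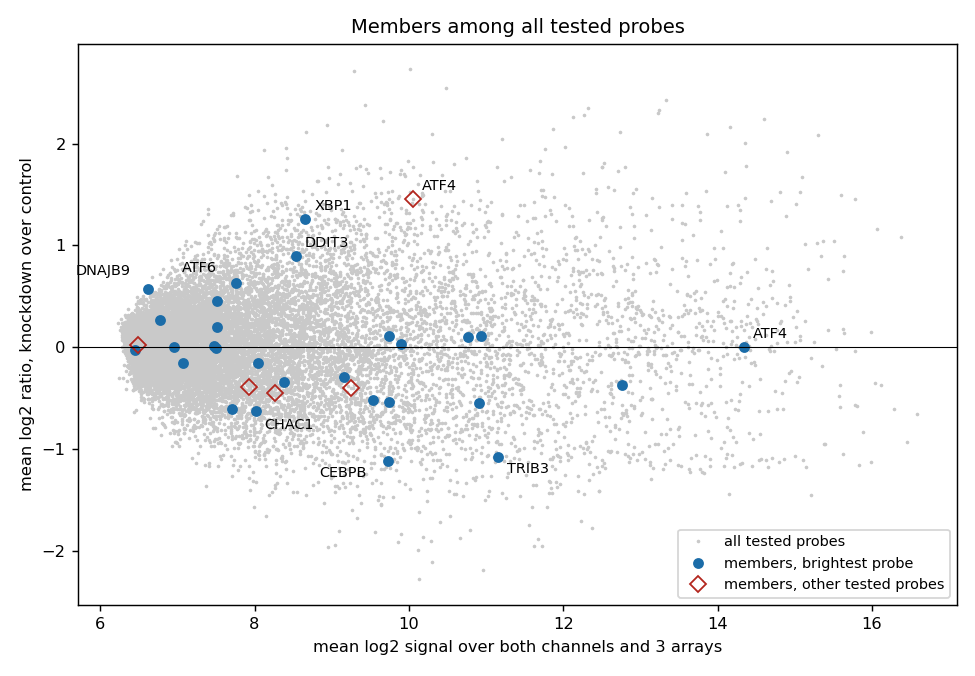
Mean log2 ratio of knockdown over control (vertical axis) against mean log2 signal over both channels and all arrays (horizontal axis) for all 18143 tested probes (grey), the brightest probe of each of the 28 genes (circles) and the other tested probes of these genes (diamonds). XBP1 at 1.26 and the second ATF4 probe at 1.46 lie near the upper edge of the cloud and TRIB3 at -1.08 and CEBPB at -1.12 near its lower edge, while most of the other genes lie within it.

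The 7 calls differed in how far they rested on the way the ratios were computed. XBP1, DDIT3 and ATF6 kept their call in 15 of 16 alternatives each, the exception being the fit without replicate 2, where their mean log2 ratios were 1.40, 0.81 and 0.56 and their limma adjusted p 0.117, 0.117 and 0.140. CEBPB, TRIB3 and CHAC1 kept theirs in 14 of 16, the exceptions being that fit and centring on the median of all probes. DNAJB9 kept its call in 12 of 15, and it was not tested where both channels had to be well above background. Those 15 all rest on its control signal, which was close to background. No gene among the 7 had a mean that changed sign in any alternative that was run. Several alternatives change only the filter, the variance model or the adjustment, and in those the sign could not change.

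**Figure D5:**
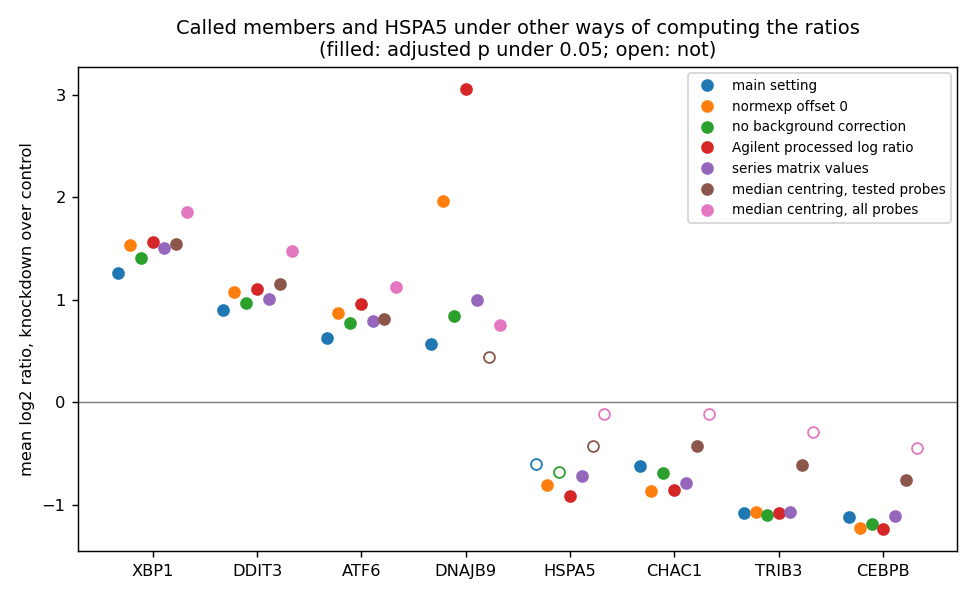
Mean log2 ratio of knockdown over control (vertical axis) for the 7 genes that passed the test and for HSPA5 (horizontal axis) under 7 ways of computing the ratios (colours), with filled points where the limma adjusted p was under 0.05. XBP1, DDIT3 and ATF6 are filled throughout, DNAJB9 runs from 0.44 to 3.06, and CEBPB, TRIB3 and CHAC1 approach 0 and turn open with centring on the median of all probes.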

How the data were processed

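Heavy polysome RNA of RHA knockdown (Cy5) and control (Cy3) COS-7 cells was compared on 3 arrays, 1 group of biological replicates 1 to 3 per the labels. The authors' spot intensity values came, per the file headers, from Agilent Feature Extraction 10.9.1.1 (10.9 in the submitters' processing notes, which also name limma) on design 014850. The deposited tables also hold processed signals and log10 ratios of Cy5 over Cy3. The authors' series table holds log2 ratios of unstated scale, centring and direction; they followed loess-normalized Cy5 over Cy3 here with Pearson's r of 0.994 to 0.995 and medians of 0 to 0.01, and served as an alternative.

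In R 4.3.3 with limma 3.58.1, median spot signals were corrected with normexp (offset 50, which pulls dim ratios toward 0) and normalized by loess within arrays, control spots at weight 0. Flagged spots (142 to 150 per array) were left out, spots of a probe were averaged, and 18143 of 41000 probes, those with 1 or both channels well above background on each array, were tested with lmFit and eBayes on an intercept and Benjamini-Hochberg adjustment. With 3 arrays an exact sign-flip test cannot go below p = 0.25, and their number limits the precision. The genes, their roles and the alternatives were chosen with earlier results of these data known. Values on each array are given for genes past the threshold and for 11 genes named in the plan, with others added after their values were seen. Lists of other pathway genes and cell type markers, planned by symbol, were not computed, and no sequences were used here.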

Additional observations from a re-analysis of the deposited data

How the results depend on the processing

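Limits: the dyes were never swapped, the arrays number 3, probes of another species were used, and dim signals leave ERN1, EIF2AK3, HYOU1 and SESN2 unread. Of the 175 values of named genes under alternatives, 151 kept their direction and side of the threshold, 12 lost the call, 7 gained one and 5 changed sign. Some alternatives change only the probe filter, the variance model or the adjustment. They leave a gene's mean ratio as it is, so its sign could not change there. A kept value could still differ in size. The brightest ATF4 probe counted as kept at 0.95 with centring on all probes and 0.64 with centring on the tested probes. The sign changes were HSP90B1 at 0.20 and ASNS at 0.33 with centring on the median of all probes, ASNS at 0.017 with centring on the tested probes, and the brightest ATF4 probe at -0.034 and -0.15 without replicates 2 and 3 (0.19 without replicate 1). With centring on all probes, 0 genes fell and the median log2 ratio of the tested genes was 0.43. When each replicate was left out in turn, the risen genes numbered 0 to 5 and the fallen genes 0 to 4, the 0 in both cases without replicate 2, where limma called no probe at all although 4238 had an unadjusted p under 0.05; the cause was not tested. In the other alternatives the risen genes numbered 3 to 6. The fallen genes numbered 3 to 4 there, apart from the 0 with centring on all probes. Averaging all tested probes of an accession gave ATF4 a mean of 0.73 and a limma adjusted p of 0.0177. The tested ratio already pairs the RNAs of a replicate on their array, so no further replicate block was fitted.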
